A study of Mus musculus with 6 samples.

Results

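The 10 genes examined here encode sensors of foreign or misplaced nucleic acid and the proteins that carry their signal: Ddx58, Ifih1, Dhx58, Mavs, Tlr3, Tmem173, Tbk1, Irf3, Trim25 and Eif2ak2. They were chosen by name from the 28752 genes of the deposited table, where 9 appear under these symbols. Tmem173, which encodes STING, is listed there as Sting1 and was matched by its gene identifier. The cells were mouse Lgr5+ intestinal stem cells (ISCs), sorted from Lgr5-GFP animals, whose reporter marks the dividing cells at the crypt base, and grown as organoids. The control group was wild type with the vector (n = 3), and the other group overexpressed circEZH2_005, a circular RNA made from exons of Ezh2, from an adenovirus (n = 3). The labels give 72 h of infection and then hypoxia/reoxygenation (H/R), with 4 h at 2% O2, for all 6 samples. The vector construct is not described in the labels beyond its name, and samples without a virus or in normal oxygen were not analysed here, so the levels below are those of cells that had been through both infection and H/R. The labels give neither an animal age nor the number of animals behind a sample, and p-values therefore measure the spread between these samples, which may be technical.

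The RIG-I-like receptors Ddx58 (RIG-I), Ifih1 (MDA5) and Dhx58 (LGP2) bind viral RNA in the cytosol, and the first of these is helped by the ubiquitin ligase Trim25. RIG-I and MDA5 pass the signal to Mavs on mitochondria, whereas Tlr3 reads double-stranded RNA in endosomes and STING responds to cytosolic DNA through the messenger made by cGAS. These routes meet at the kinase Tbk1 and the transcription factor Irf3, which switch on interferon genes. Eif2ak2 (PKR) binds double-stranded RNA and halts translation. Several of these genes are themselves induced by interferon, through a promoter element called the interferon-stimulated response element (ISRE), and intestinal epithelium responds above all to type III interferon.

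Promoter windows of the RefSeq table (GRCm38.p6), from 250 bases before to 50 bases after the annotated start, were held for 8 members, and were searched on both strands for the ISRE core, taken as the letters GAAA, any 2 bases and GAAA. It was found in 3 of these 8 windows, against 3.44% of 32851 promoter windows of the same length. The 3 sites are printed because they are a feature of the members that was read from the genome and not from these samples. Each is written along the strand of its gene, with the ISRE core in capitals; in Ddx58 the core is on the other strand, so that its reverse complement is seen.
Ddx58, chr4:40239804-40239833, minus strand: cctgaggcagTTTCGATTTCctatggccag
Ifih1, chr2:62646206-62646233, minus strand: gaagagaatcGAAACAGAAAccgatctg
Eif2ak2, chr17:78882535-78882564, minus strand: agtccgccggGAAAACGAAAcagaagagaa
All 3 cores lay just after the RefSeq start, at bases 3 to 12 in Ddx58, 33 to 42 in Ifih1 and 19 to 28 in Eif2ak2, counted from 1 at that start. The deposited table begins Ifih1 elsewhere, at 62646211 on the minus strand, and the core lies before that start. The kappaB element, taken as GGGA, any base and TTTCC, was in the window of Tlr3 alone among the 8, and in 0.411% of all windows. The windows of Mavs, Tbk1, Irf3 and Trim25 held neither motif, which says only that these letters are not in these 300 bases. Dhx58 and Tmem173 had no window.

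Total counts lay between 71506487 and 79919893 per sample. As a check of the label, the stem cell marker Lgr5 was detected in every sample, with 16.1, 12.1 and 18.3 CPM (counts scaled to library size, with TMM factors) in vector samples 1 to 3, against 8.55, 9.10 and 7.70 CPM in circEZH2_005 samples 1 to 3, and it was lower with circEZH2_005 (log2 fold change -0.88, adjusted p = 0.0434 by edgeR). Of the 12 epithelial markers, the stem cell gene Smoc2 was also lower (-0.81, adjusted p = 0.0203), the keratin Krt8 was higher (0.57, adjusted p = 0.0301), and 7 of 12 had a log2 fold change above 0. The same 3 were called without vector sample 2, and none was called without vector sample 1, vector sample 3, circEZH2_005 sample 2 or circEZH2_005 sample 3. The 12 epithelial markers summed to between 9428 and 9814 CPM in vector samples and between 10350 and 12142 CPM in circEZH2_005 samples. The 20 leukocyte markers also had counts in every sample, although the methods describe sorting for Lgr5-GFP, and their sum was 133, 355 and 166 CPM in vector samples 1 to 3, against 851, 656 and 494 CPM in circEZH2_005 samples 1 to 3. None of these 20 was at 0 in any sample, and the pan-leukocyte gene Ptprc had 22.8, 78.6 and 31.9 CPM with vector and 185, 140 and 103 CPM with circEZH2_005. In bulk RNA, more cells of a type and more RNA per cell cannot be told apart. Vector sample 2 stood apart from vector samples 1 and 3, with a correlation of 0.970 to each of them beside 0.979 between those samples, and with up to 0.971 to a circEZH2_005 sample. Counts of calls at an adjusted p under 0.05 by edgeR are therefore also given without it. Where a count is given with another sample left out, the share of all genes called in that fit is not reported here.

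FPKM, fragments per kilobase of transcript scaled to depth, is the scale on which levels of different genes can be compared, and it placed Trim25 highest and Tmem173 lowest in both groups. In vector samples the means were 28.8 ± 8.72 FPKM for Trim25, 20.9 ± 0.97 for Mavs, 19.2 ± 7.39 for Eif2ak2, 16.5 ± 1.00 for Tbk1 and 14.7 ± 1.10 for Irf3 (SD, n = 3 each). They were 11.4 ± 3.47 FPKM for Ifih1, 9.13 ± 1.23 for Tlr3, 8.24 ± 3.04 for Ddx58, 8.20 ± 5.06 for Dhx58 and 2.22 ± 0.43 for Tmem173 (SD, n = 3 each). Only the ends of this order were clear of the gene next to them by mean. The samples of Trim25 did not overlap those of Mavs, and those of Dhx58 did not overlap those of Tmem173. All pairs of neighbours between them overlapped. Trim25 was not clear of Eif2ak2, which reached 27.7 FPKM in vector sample 2. Trim25 had 23.8 and 23.6 FPKM in vector samples 1 and 3. With circEZH2_005, Trim25 (39.7 ± 6.72 FPKM) and Tmem173 (3.55 ± 0.66 FPKM; SD, n = 3 each) were again clear of their neighbours Eif2ak2 and Tlr3, and again all pairs between overlapped. Mavs stood at rank 2 in vector samples and at rank 5 with circEZH2_005. The plot of FPKM by gene also shows that the spread differed among members: the vector samples of Mavs, Tbk1 and Irf3 lay close together, and those of Trim25, Eif2ak2, Ifih1, Ddx58 and Dhx58 were spread by 1 high sample, vector sample 2.

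**Figure D1:**
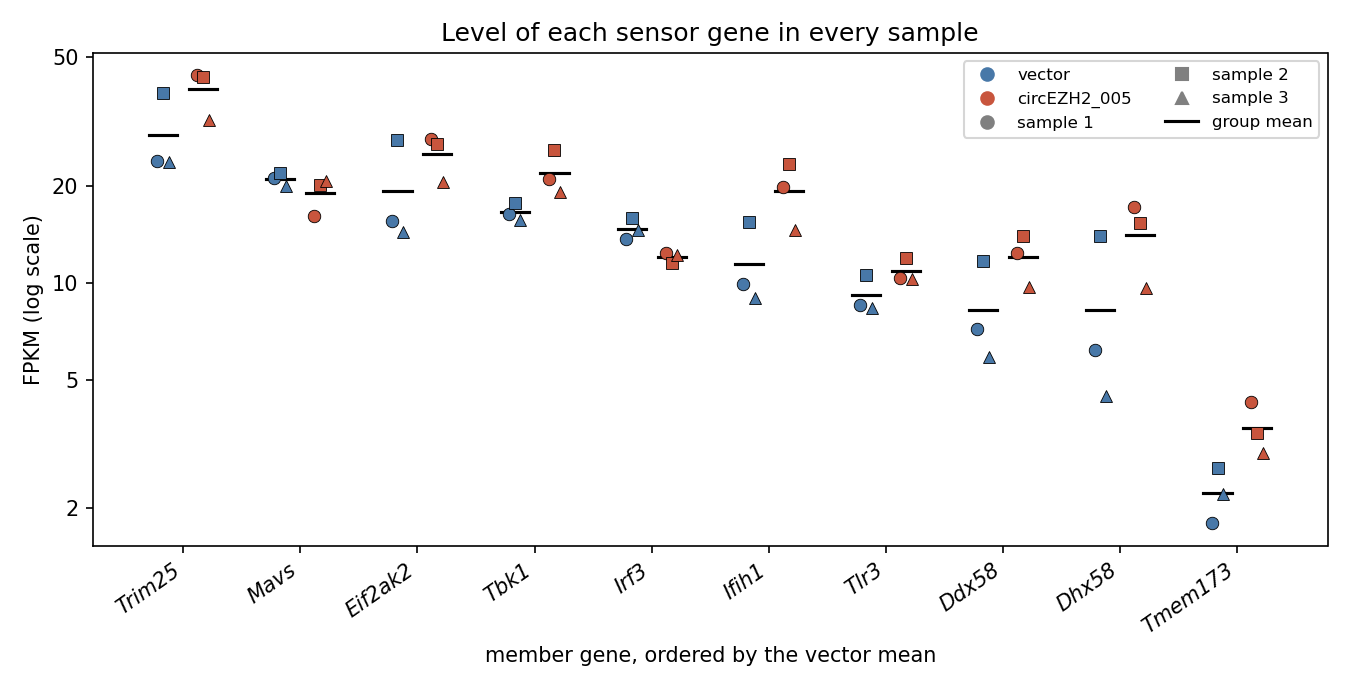
FPKM (log scale) of the 10 sensor genes in each of the 3 vector (blue) and 3 circEZH2_005 (red) samples, with the sample number as the marker shape and a bar at the group mean. Trim25 is highest and Tmem173 lowest in both groups, and the square of vector sample 2 lies above the other vector samples for all 10 genes.

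The comparison of circEZH2_005 with vector asked whether the circular RNA altered the sensors in cells that had been through infection and H/R. No member passed an adjusted p of 0.05: edgeR's quasi-likelihood test called 0 of 10, against 3.67% of the 18348 genes tested. At an unadjusted p under 0.05, 6 members were above and 1, Irf3, was below the vector level, where 23.7% of all genes tested met that threshold in either direction. By a fold change over 2 together with an unadjusted p under 0.05, 0 of 10 members passed, against 7.56% of genes. DESeq2 called 5 members higher (Ddx58, Ifih1, Tbk1, Tmem173 and Trim25), with 13.9% of genes called, and limma on log2(FPKM + 1) called 0, with 5.54% of genes called. The median log2 fold change of the members was 0.53, beside 2.15e-05 over all genes tested, and 8 of 10 were above 0.

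Without vector sample 2, edgeR called 6 of 10 members higher and 0 lower, against 7.48% of the 19145 genes tested in that fit. These were Ddx58, Dhx58, Eif2ak2, Ifih1, Tmem173 and Trim25, and the members' median log2 fold change was 0.82. In that fit 2 vector samples are compared with 3 circEZH2_005 samples. Leaving out any other sample gave 0 member calls, but the share of all genes called in those fits is not reported here. Without vector sample 1, vector sample 3 or circEZH2_005 sample 2, the other gene lists and the marker lists had 0 calls too. These 0 calls are therefore not read as a result about the members. As vector sample 2 was the highest vector sample for all 10 members, leaving it out raises their fold changes by construction. With all samples, 4 of 10 members did not overlap between the groups in CPM, Ifih1, Tbk1 and Tmem173 above and Irf3 below the vector samples, beside 30.6% of all genes tested. For these 4 the two-sided exact permutation test gave p = 0.1, the smallest that 3 samples against 3 allow. Groups of 3 that do not overlap always give this value, so the test adds nothing to the lack of overlap.

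**Figure D2:**
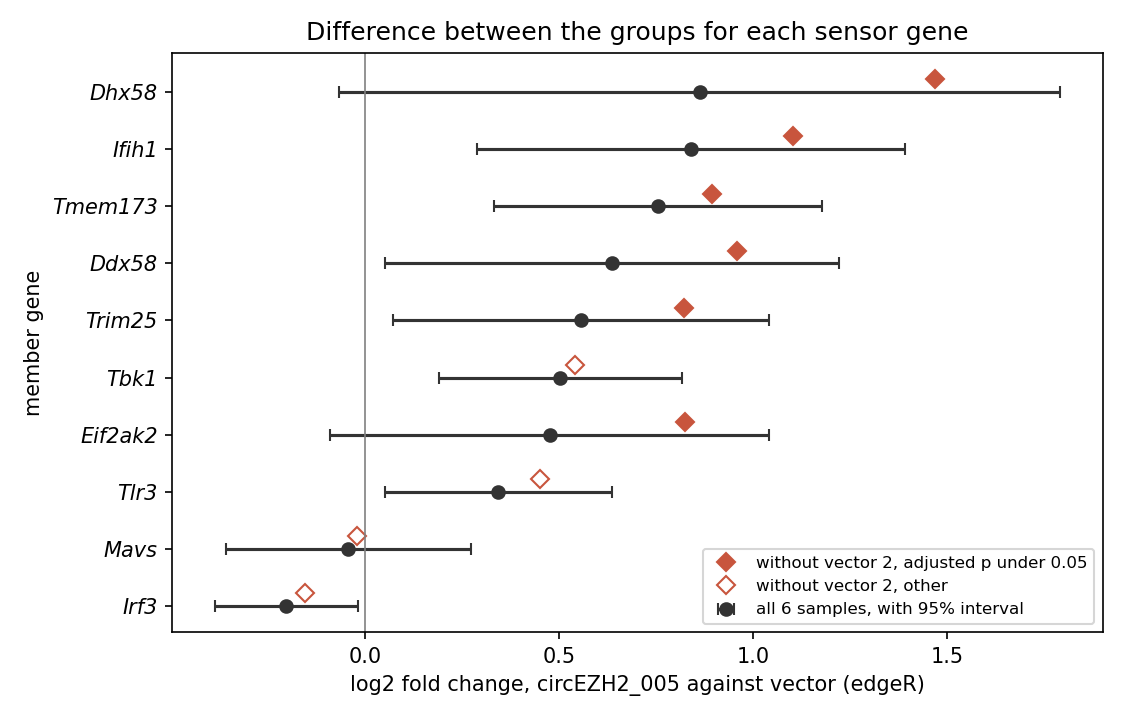
Log2 fold change of each sensor gene between circEZH2_005 and vector samples from edgeR, with 95% intervals for all 6 samples (black), and the value without vector sample 2 (red, filled where the adjusted p is under 0.05). Leaving out that sample moves Dhx58 from 0.86 to 1.47 and leaves Mavs and Irf3 near 0, at -0.02 and -0.15.

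Among the RIG-I-like receptors, Ifih1 (chromosome 2, 62595798 to 62646211, minus strand, GRCm38) encodes MDA5, which prefers long double-stranded RNA. Its level was 9.94, 15.4 and 8.99 FPKM in vector samples 1 to 3, against 19.8, 23.2 and 14.5 FPKM in circEZH2_005 samples 1 to 3. On this scale vector sample 2 lay above circEZH2_005 sample 3, while in CPM the groups did not overlap. Its log2 fold change was 0.84 (standard error 0.24, 95% interval 0.29 to 1.39, adjusted p = 0.0865 by edgeR).

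Ddx58 (chromosome 4, 40203773 to 40239825, minus strand) encodes RIG-I, which reads the 5′ triphosphate of short viral RNAs. It was at 7.18, 11.7 and 5.87 FPKM with vector and at 12.3, 14.0 and 9.71 FPKM with circEZH2_005, so that vector sample 2 lay within the range of the circEZH2_005 samples. The log2 fold change was 0.64 (standard error 0.25, 95% interval 0.05 to 1.22, adjusted p = 0.179 by edgeR), and 0.96 without vector sample 2 (adjusted p = 0.0232).

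Dhx58 (chromosome 11, 100694884 to 100704271, minus strand) encodes LGP2, a receptor without the signalling domains of the others that tunes MDA5 and RIG-I. Relative to its mean, it had the widest spread of the 10 genes in vector samples. Its level was 6.20, 14.0 and 4.44 FPKM in vector samples 1 to 3, against 17.2, 15.3 and 9.64 FPKM in circEZH2_005 samples 1 to 3. Vector sample 2 was 2.57 times the mean of vector samples 1 and 3 in CPM, and above circEZH2_005 sample 3. The log2 fold change of 0.86 therefore had a standard error of 0.40 and an interval from -0.07 to 1.79 (adjusted p = 0.243 by edgeR), against 1.47 without vector sample 2 (adjusted p = 0.0168). An antisense gene, Dhx58os, overlaps it, and as no source says that reads were counted by strand, the reads of both cannot be told apart.

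Mavs (chromosome 2, 131234063 to 131248025, plus strand), the mitochondrial adaptor of RIG-I and MDA5, was at 21.04, 21.8 and 19.9 FPKM with vector and at 16.1, 20.1 and 20.7 FPKM with circEZH2_005. The groups overlapped, with circEZH2_005 sample 1 as the low value. Its log2 fold change was -0.04 with an interval from -0.36 to 0.27 (adjusted p = 0.885 by edgeR), and its sign turned to 0.10 when circEZH2_005 sample 1 was left out. The summed FPKM of the 3 receptors relative to Mavs was 1.11, 1.88 and 0.970 in vector samples 1 to 3, against 3.06, 2.61 and 1.64 in circEZH2_005 samples 1 to 3. In this ratio vector sample 2 lay above circEZH2_005 sample 3, so the groups overlapped.

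Trim25 (chromosome 11, 88999376 to 89020293, plus strand), the ubiquitin ligase, had counts of 10905, 17818 and 11471 in vector samples and of 21548, 22241 and 15553 in circEZH2_005 samples. In FPKM these were 23.8, 38.8 and 23.6 with vector and 43.9, 43.3 and 32.0 with circEZH2_005. Vector sample 2 again exceeded circEZH2_005 sample 3. Its log2 fold change was 0.56 (standard error 0.21, 95% interval 0.07 to 1.04, adjusted p = 0.161 by edgeR), and 0.82 without vector sample 2 (adjusted p = 0.0193).

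Tlr3 (chromosome 8, 45395665 to 45411080, minus strand), the endosomal sensor of double-stranded RNA, was at 8.52, 10.5 and 8.32 FPKM with vector and at 10.3, 11.9 and 10.3 FPKM with circEZH2_005. In FPKM its vector sample 2 lay above circEZH2_005 samples 1 and 3. The fitted log2 fold change was 0.34 (standard error 0.13, 95% interval 0.05 to 0.64, adjusted p = 0.153 by edgeR), and 0.45 without vector sample 2, which did not pass either (adjusted p = 0.0782). The antisense gene Gm45542 overlaps it.

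Tmem173, the STING gene, had the smallest adjusted p of the members and the fewest counts. These were 394, 585 and 514 in vector samples 1 to 3, against 999, 839 and 690 in circEZH2_005 samples 1 to 3, or 1.80, 2.66 and 2.21 FPKM against 4.26, 3.41 and 2.96 FPKM. No circEZH2_005 sample was as low as the highest vector sample. The log2 fold change was 0.75 (standard error 0.18, 95% interval 0.33 to 1.18, adjusted p = 0.0613 by edgeR), and 0.89 without vector sample 2 (adjusted p = 0.0304). The DNA sensor upstream of STING, Cgas, was at 12.9, 18.0 and 11.5 CPM with vector and at 13.0, 13.3 and 12.9 CPM with circEZH2_005. It did not pass (log2 fold change -0.11, adjusted p = 0.761 by edgeR), and its sign turned to 0.10 without vector sample 2.

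Tbk1 and Irf3, where the routes meet, had log2 fold changes of opposite sign, and their vector samples lay close together. Tbk1 (chromosome 10, 121546455 to 121586787, minus strand) was at 16.3, 17.6 and 15.6 FPKM with vector and at 20.9, 25.7 and 19.1 FPKM with circEZH2_005, without overlap. Its log2 fold change was 0.50 (standard error 0.13, 95% interval 0.19 to 0.81, adjusted p = 0.0775 by edgeR). Irf3 (chromosome 7, 44997648 to 45002848, plus strand) was at 13.7, 15.9 and 14.5 FPKM with vector and at 12.3, 11.5 and 12.2 FPKM with circEZH2_005, so that every circEZH2_005 sample lay below every vector sample. Its log2 fold change was -0.20 (standard error 0.08, 95% interval -0.39 to -0.02, adjusted p = 0.173 by edgeR). Neither passed without vector sample 2 (adjusted p = 0.0917 and 0.341). Irf3 overlaps Bcl2l12 on the other strand, so part of its reads may belong to that gene.

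Eif2ak2 (chromosome 17, 78852564 to 78882573, minus strand), the kinase PKR, was at 15.5, 27.7 and 14.4 FPKM with vector and at 27.9, 26.9 and 20.5 FPKM with circEZH2_005. In FPKM vector sample 2 lay between circEZH2_005 samples 1 and 2. Its log2 fold change was 0.47 (standard error 0.24, 95% interval -0.09 to 1.04, adjusted p = 0.290 by edgeR). It was 0.82 without vector sample 2, the highest of the vector samples (adjusted p = 0.0158 by edgeR). The small RNA gene n-R5s29 and the noncoding gene Gm26637 overlap it on the other strand. Of the 3 related kinases that phosphorylate the same initiation factor, none was called: Eif2ak1, which senses haem shortage, stood at 0.16 on the log2 scale (adjusted p = 0.306 by edgeR) and Eif2ak3 (PERK), which senses unfolded proteins, at 0.23 (adjusted p = 0.324). Vector sample 2 was not the highest vector sample for any of these 3.

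The position of vector sample 2 was the common feature of the members. It was the highest of the vector samples for all 10, which held for 38.6% of all genes tested. Relative to the mean CPM of vector samples 1 and 3 it was 2.57 times as high for Dhx58, 1.82 for Eif2ak2, 1.75 for Ddx58, 1.605 for Trim25 and 1.597 for Ifih1. It was 1.304 times as high for Tmem173, 1.23 for Tlr3, 1.10 for Irf3, 1.08 for Tbk1 and 1.05 for Mavs. Vector sample 2 was also the highest vector sample for 16 of the 20 leukocyte markers and for 2 of the 12 epithelial markers. Beside 3.67% of all genes called, 1 leukocyte marker, the integrin Itgax, passed an adjusted p of 0.05 in the comparison of circEZH2_005 with vector (log2 fold change 1.86, adjusted p = 0.0362 by edgeR). Without vector sample 2 the count was 9, all higher, beside 7.48% of all genes. The count was 1, again Itgax, without circEZH2_005 sample 3, and 0 with any of the other samples left out. The integrin Itgae of intraepithelial lymphocytes had 14.9, 53.6 and 17.7 CPM with vector and 146, 128 and 97.0 CPM with circEZH2_005, while Cd8a and the actin regulator Coro1a had the same order of groups and of vector samples. The leukocyte sum of vector sample 2, 355 CPM, lay below that of every circEZH2_005 sample. In CPM, its Ifih1, Tbk1 and Tmem173 did so too. Its Dhx58, Ddx58, Eif2ak2, Trim25, Tlr3, Mavs and Irf3 lay above the lowest circEZH2_005 sample. The part of leukocyte RNA in the levels of the members was not tested. Stromal markers were scarce: the 10 genes summed to between 6.95 and 18.8 CPM over the 6 samples. Pecam1, listed as an endothelial gene, was the single one that passed (log2 fold change 1.93, adjusted p = 0.0377 by edgeR). Pecam1 was called without vector sample 2 as well, and with no other sample left out. The endothelial genes Cdh5 and Kdr had at most 18 and 19 counts in any sample and were not tested with all samples. Itgax and Pecam1 are named because they passed, not by the rule for marker genes.

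**Figure D3:**
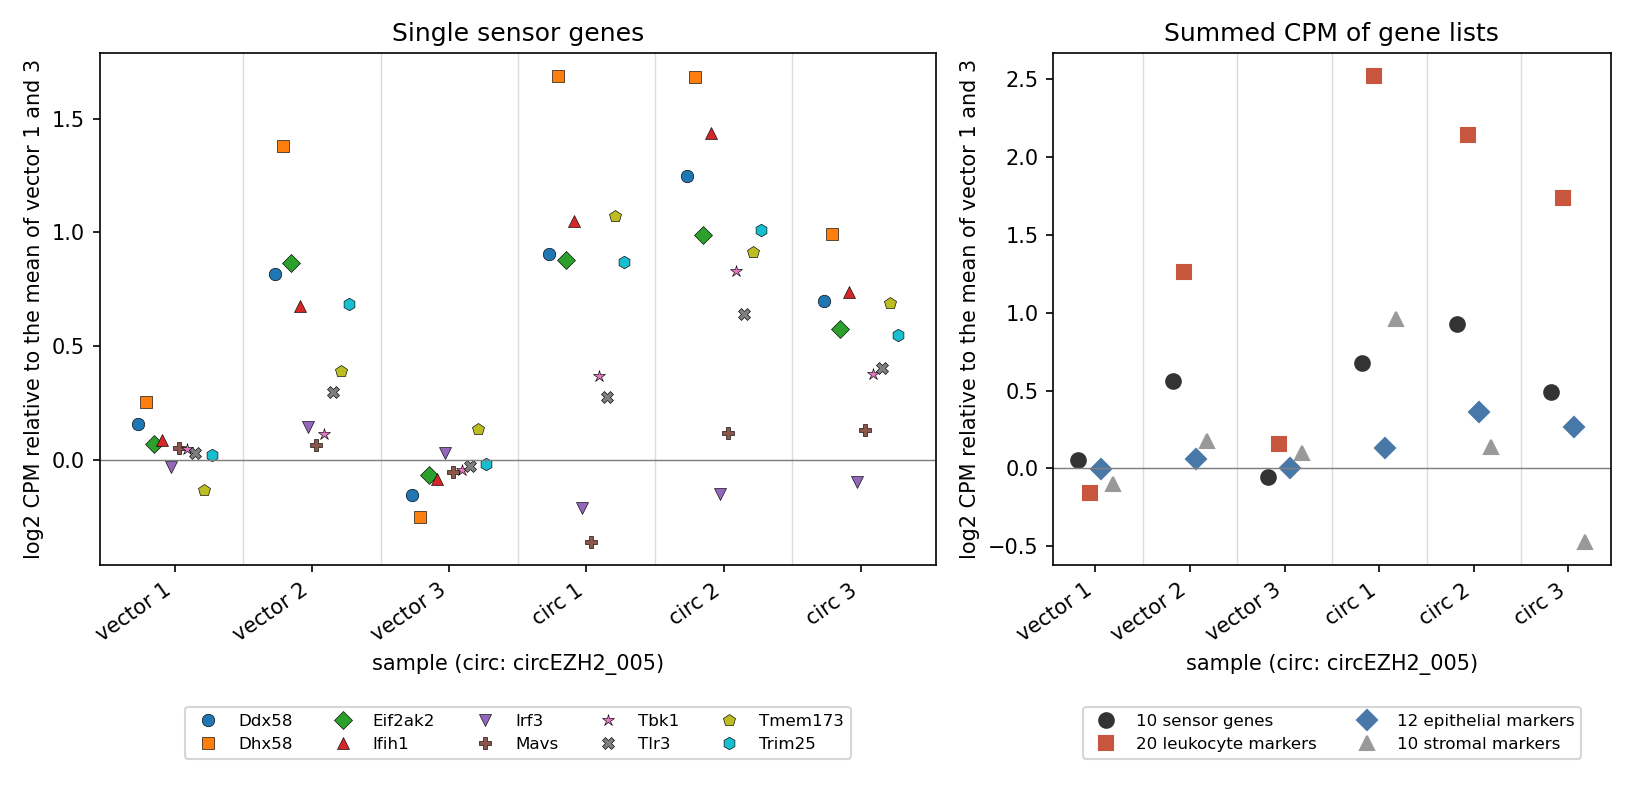
Left, log2 CPM of each sensor gene in the 6 samples relative to the mean of vector samples 1 and 3. Right, the same for the summed CPM of the 10 sensor genes and of the leukocyte, epithelial and stromal marker lists. Most sensor genes and the leukocyte markers are high in vector sample 2 and in the circEZH2_005 samples, and Mavs and Irf3 stay near or below 0.

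Among 24 further sensors of DNA and RNA, 23 were tested, with a median log2 fold change of 0.99. Beside 3.67% of all genes called, 2 of these 23 rose, with 0 lower. These were Ifi204, a nuclear DNA sensor of the p200 family, with 0.221, 0.468 and 0.358 CPM against 2.63, 4.10 and 1.12 CPM (log2 fold change 2.90, standard error 0.53, adjusted p = 0.0362 by edgeR), and Oasl1, of the oligoadenylate synthetase family, with 47.8, 85.4 and 46.0 CPM against 173, 255 and 143 CPM (log2 fold change 1.67, standard error 0.30, adjusted p = 0.0332 by edgeR). Each has close paralogs, and reads may have been split among them. Without vector sample 2, 14 of 23 were called, beside 7.48% of all genes in that fit. Without vector sample 1, vector sample 3 or circEZH2_005 sample 2 the count was 0, and it was 1 without circEZH2_005 sample 1 (Oasl1) or sample 3 (Ifi204). Vector sample 2 was the highest vector sample for 19 of the 23, as it was for the members.

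Of 26 adaptors, kinases and ubiquitin enzymes of the same routes, 0 passed with edgeR, against 3.67% of all genes tested. At an unadjusted p under 0.05, 9 of the 26 were higher and 2 lower, beside 23.7% of all genes. The median log2 fold change of the 26 was 0.13. The 2 most abundant by FPKM were Pcbp2, which promotes the breakdown of MAVS, at 0.02 on the log2 scale (adjusted p = 0.914 by edgeR), and the autophagy receptor Optn, a binding partner of TBK1, at 0.70 (adjusted p = 0.0775 by edgeR). Without vector sample 2, 2 of 26 were called, against 7.48% of all genes in that fit. Without circEZH2_005 sample 1 the count was 1 (Optn), and leaving out any other sample gave 0.

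Beside 3.67% of all genes called, 1 rose of the 12 tested among 15 interferon factors, ligands and receptors that matched. This was Irf1, a transcription factor of the interferon response, with 180, 278 and 151 CPM in vector samples, against 363, 494 and 445 CPM in circEZH2_005 samples (log2 fold change 1.10, standard error 0.23, adjusted p = 0.0472 by edgeR). Without vector sample 2, 5 of 12 were called, beside 7.48% of all genes in that fit. Leaving out any other sample gave 0 calls in this list, so that Irf1 no longer passed. The share of all genes called in those fits is not reported here. The interferon genes themselves were close to the floor and were not tested. Ifnl2 had 15 counts in circEZH2_005 sample 1 and 0 in the other samples. Ifnl3 had 3 counts in vector sample 3 and 7 in circEZH2_005 sample 2, and Ifnk had at most 6 counts in any sample. These 3 were named after their counts were seen, and 3 counts, the smallest level taken as detected, correspond to between 0.0375 and 0.0420 CPM; such a floor covers counting error only. Ifnb1 and Ifna4 were not analysed here.

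Beside 3.67% of all genes called, 2 of 12 nucleases and editing enzymes that limit what the sensors meet rose and 0 fell. Among them, Samhd1, which depletes nucleotides and restricts viruses, had 121, 186 and 107 CPM with vector and 263, 385 and 262 CPM with circEZH2_005 (log2 fold change 1.13, standard error 0.24, adjusted p = 0.0482 by edgeR). Samhd1 was also called without vector sample 2, where the list again had 2 calls and 7.48% of all genes were called. Leaving out any other sample gave 0 calls in the list. The median of the list was 0.02.

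To find the genes that moved most like the RIG-I-like receptors, the log2 CPM of each of 10218 protein-coding genes whose mean FPKM was 1 or more was centred over the 6 samples and set against the mean centred profile of Ddx58, Ifih1 and Dhx58. The nearest were Rnf213 (root mean square difference 0.05 log2 units), Sp100 (0.06), Trim12a (0.08), Slfn2 (0.11) and Oas1g (0.11), beside a median of 0.59 over the genes considered. Of the members that did not define the profile, Eif2ak2 (0.18) and Trim25 (0.19) were nearest, Tmem173 (0.29), Tbk1 (0.36) and Tlr3 (0.38) followed, and Mavs (0.61) and Irf3 (0.63) were about as far as the median gene. Rnf213, a very large ubiquitin ligase, had 505, 931 and 432 CPM with vector and 1043, 1332 and 811 CPM with circEZH2_005, and thus the same high vector sample 2. None of these 5 genes passed an adjusted p of 0.05, with values between 0.0990 and 0.271 by edgeR.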

How the data were processed

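RNA sequencing was measured in 6 samples, 3 per group, assigned by the labels. Control columns of the table carry the letters NC and a number; they were read as vector samples, since the labels hold no other control. The authors deposited a count of reads per gene and sample, without normalization, and an FPKM value. The submitters' processing notes name mm10, cutadapt 1.9, HISAT2 2.0.4, StringTie 1.3.4d and DESeq2, without their roles. The counter, annotation and strand setting are not given in the sources used here. The members and gene lists were chosen with earlier results of these data known.

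Counts of all genes were filtered with filterByExpr (18348 kept), scaled with TMM and tested by quasi-likelihood in edgeR 4.0.16 (R 4.3.3), with Benjamini-Hochberg adjustment over all genes tested. Standard errors come from the F statistic of each gene, and 95% intervals use the test's degrees of freedom. Alternatives used DESeq2 1.42.0, limma 3.58.1 on log2(FPKM + 1) or log2(FPKM + 0.1) of genes whose mean FPKM was 0.5 or more, other scalings, no filter, a replicate block, another call rule, and each sample left out in turn. On simulated counts for this comparison, with 200 of 17710 genes changed by 1.5 on the log2 scale, edgeR recovered 121 (60.5%) and made 9 false calls. No member changed by more than 0.86, and no simulated sample was made to stand apart. The recovery therefore does not tell how many changes of the members' size would be called.

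Genes named in the text are all members, the called members of each list (at most 6, by size of change), the 2 most abundant of a list with none called, and the 5 genes nearest to the RIG-I-like receptors. Results for some items in these lists and searches are not reported here. Up to 4 markers per list could be named. Cgas, Lgr5, Smoc2, Itgax, Pecam1, Cdh5, Kdr and 3 interferon genes fall outside this rule and were named after their values were seen. Of the gene identifiers, 28678 were found in GENCODE M21 (GRCm38), which was used for overlapping genes. No column of sample values was left unused. Counting error is small for the members at these depths, and precision is set by the 3 samples per group.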

Additional observations from a re-analysis of the deposited data

How the results depend on the processing

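The count of sensor genes called, 0 of 10, was also 0 with median-of-ratios or library size scaling, without a filter, with either limma fit and by fold change over 2. It was 5 with DESeq2, all higher, and 1 (Ifih1, higher) with the replicate block. The cause of these differences was not tested. It ranged from 0 to 6 with single samples omitted, the 6 being without vector replicate 2. The count over the pathway lists, 5 of 76 tested, became 0 without a filter, 17 with DESeq2, 3 with limma on log2(FPKM + 1), 2 with log2(FPKM + 0.1), 14 by fold change over 2 with an unadjusted p under 0.05, and 10 with the replicate block, and ranged from 0 to 23 with each sample left out. It was 0 without vector replicate 1, vector replicate 3 or circEZH2_005 replicate 2, 1 without circEZH2_005 replicate 3, 2 without circEZH2_005 replicate 1 and 23 without vector replicate 2. Over all genes, the share called was 3.67% in the main fit, 13.9% with DESeq2 and 5.54% with limma on log2(FPKM + 1). It was 7.56% by fold change over 2 with an unadjusted p under 0.05, and 7.48% without vector replicate 2. That share is not reported here for the replicate block, the other scalings, the fit without a filter or limma on log2(FPKM + 0.1). Nor is it reported with any of the other samples left out. The counts from those fits, including those of 0, are therefore not read as results about these genes.

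Samples share replicate numbers, but same-numbered samples did not deviate together (correlations of -0.14, -0.02 and 0.04 for pairs 1 to 3), so the block has no basis beyond the number. With each sample left out, between 5 and 8 of the 10 members kept their rank of mean FPKM in the group concerned. The log2 fold change of Mavs then ranged from -0.13 to 0.10, the only sign change among 130 values of the 10 members. Of the others, 117 kept their direction and stayed above the threshold for an adjusted p and 12 fell below it. In CPM by library size, and in FPKM, which were chosen after seeing the data, 3 members did not overlap between groups, in place of 4. With 3 samples per group, 1 of which stands apart among the vector samples, precision is limited by samples and not by depth.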

Other observations

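The ISRE core searched in the promoter windows of the 10 sensor genes was also counted in the other gene lists, as a description with no test. It was in a window of 7 of 20 further sensors with a window (Ddx60, Ifi203, Ifit1, Ifit3, Mndal, Oas1a and Oas3), of 2 of 21 adaptors, kinases and ubiquitin enzymes (Myd88 and Tomm70a), of 1 of 13 interferon factors, ligands and receptors (Stat2) and of 0 of 9 nucleases and editing enzymes. It was in none of the windows of the 3 kinases related to Eif2ak2, of 7 epithelial, 13 leukocyte or 4 stromal markers. Of the genes called in these lists, Oasl1, Irf1 and Samhd1 had a window without a match, and Ifi204 had no window.

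The ratio of Dhx58 to Ifih1 in FPKM was 0.624, 0.906 and 0.494 in vector samples 1 to 3, against 0.865, 0.660 and 0.664 in circEZH2_005 samples 1 to 3, with overlap between the groups. The ratio of Ddx58 to Ifih1 was 0.722, 0.758 and 0.654 in vector samples, against 0.621, 0.602 and 0.669 in circEZH2_005 samples, also with overlap. The ratio of Trim25, the most abundant member, to Irf3 was 1.74, 2.44 and 1.62 against 3.56, 3.76 and 2.63, without overlap. Trim25 alone overlapped between the groups, while Irf3 alone was lower with circEZH2_005 without overlap. How many other pairs of genes would separate in this way was not tested.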
